A study of Homo sapiens with 3 samples.

Results

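The genes described here are the G1 cyclins CCND1, CCND2, CCND3, CCNE1 and CCNE2, the kinases CDK2, CDK4 and CDK6 that these cyclins activate, and the transcription factors E2F1 and E2F2. They were taken by gene name from the annotation of the array, and 17 of 41000 probes carried one of the 10 names, among 17457 genes measured. RNA came from YB5 cells. In this line, cloned from SW48 colon cancer cells, 1 GFP reporter is integrated, and its CMV promoter is methylated and silent. The cells received 4 daily doses, on days 1 to 4, of decitabine at 25 nM, of carboplatin at 20 µM, or of both drugs, and were harvested on day 6. These doses are those of the labels, and the paper's text also gives another dose of carboplatin. Each treatment was measured on 1 two-colour whole genome array, with RNA of treated cells in the Cy3 channel and RNA of control YB5 cells, given DMSO, in the Cy5 channel. The array of cells given both drugs is called the combined array. The dyes were never exchanged, so any dye preference of a probe is part of each change, and there were no replicates, so no test could be made.

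Decitabine is an analog of deoxycytidine that depletes DNA methyltransferases, so that methylation is lost as DNA is copied, and carboplatin is a platinum compound that crosslinks DNA. In G1, D-type cyclins bind CDK4 or CDK6 and E-type cyclins bind CDK2, and the active kinases phosphorylate the retinoblastoma protein RB. Phosphorylated RB releases E2F factors, which switch on the genes of DNA replication and also the genes of cyclin E and of E2F1 and E2F2 themselves. In colon epithelium and its cancers, CCND1 is best known as a gene that answers to growth factor and WNT signals.

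The log2 change of a probe compares treated with control signal on 1 array after loess normalization, and a gene was called up or down when its brightest probe passed 1.5-fold. All 17 probes were well above background in both channels of all 3 arrays. This mark is lenient, as the leukocyte gene CD3E also carried it in all 3 control channels, at log2 levels of 6.57 to 6.59. The dimmer CDK6 probe had control levels of 6.71 to 6.84. The dimmer E2F2 probe, CCNE2 and the CCND3 probe in columns 10 and above had control levels between 7.10 and 8.13. The scatter among probes that were printed 10 times on an array gave a technical SD of 0.08, 0.07 and 0.08 on the log2 scale for the decitabine-labelled, carboplatin-labelled and combined arrays, and this covers spotting and scanning only. The median control signal was 297, 315 and 282 units on these arrays, and 69.0%, 70.3% and 68.2% of gene spots were well above background in the control channel.

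The first 9 columns of spots on the decitabine-labelled array stood apart from the rest. They hold 10.1% of the spots, and their median log2 change was 0.75 there against -0.02 in the other columns, with a median control signal of 166 against 321 units. On the carboplatin-labelled array the medians were -0.03 and 0.00, and on the combined array 0.01 and 0.00. The values below therefore come from columns 10 and above, and the 7 of 44 spots of these genes that lie in the first columns are given apart. The labels of the single-drug arrays were also set against 53 published genes of cell division, cell cycle and DNA replication that carboplatin lowered in these cells, a subset of the genes so described, itself chosen on these arrays. Of these, 41 were down on the decitabine-labelled array, 4 on the carboplatin-labelled array and 37 on the combined array. Over all genes, 853 were up and 888 down on the decitabine-labelled array, against 483 and 242 on the carboplatin-labelled array. More genes were called on the decitabine-labelled array under all 11 alternatives too, but under median centring the totals were close, at 5092 against 4740. The study's own account has carboplatin as the single drug with more changed genes. The labels of the single-drug arrays may therefore be exchanged in the deposited data, in which case every single-drug value below belongs to the other drug. This was not settled here, and both arrays are called by their labels throughout. None of the 10 genes is on the list.

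Some markers of the labelled origin, though not all, were bright in the control RNA. Of 9 measured colon epithelium markers, 7 were well above background in all 3 control channels, among them KRT18, KRT19 and CDH1. KRT20 was so in 1 channel and LGALS4 in 2. Of the fibroblast markers 1 of 6 passed in all 3 (COL1A1), of the leukocyte markers 2 of 4 (CD3E and CD14) and of the endothelial markers 1 of 3 (VWF), while the leukocyte gene PTPRC and the endothelial gene PECAM1 passed in none. On the decitabine-labelled array the control log2 levels of KRT18, KRT19, CDH1 and CDX2 were 16.39, 14.44, 14.00 and 10.57. The colon markers VIL1, KRT8 and CEACAM5 were at 8.14, 7.32 and 7.02. These last 2 were close to COL1A1 at 7.19, VWF at 7.10 and CD14 at 6.96, so passing alone does not tell the cell types apart. As these are bulk samples, fewer cells in a phase and less RNA per cell cannot be told apart.

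CCND1 was the 1 gene of the 10 that was called. After loess it was up on all 3 arrays, by 1.93-fold on the decitabine-labelled array, 1.57-fold on the carboplatin-labelled array and 1.90-fold on the combined array. With each array centred on its median instead, its log2 change was 0.40, 0.16 and 0.46, not past 1.5-fold. Of all genes measured, 4.89%, 2.77% and 7.33% were up on these arrays after loess and 5.09%, 1.39% and 5.88% were down. So 1 of 10 up and 0 of 10 down is near the background. The median log2 change of the 10 genes was -0.03, 0.26 and -0.07, against -0.02, 0.00 and 0.00 over all genes. Under median centring these medians were -0.44, -0.15 and -0.51, against -0.22, -0.14 and -0.10 over all genes.

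**Figure D1:**
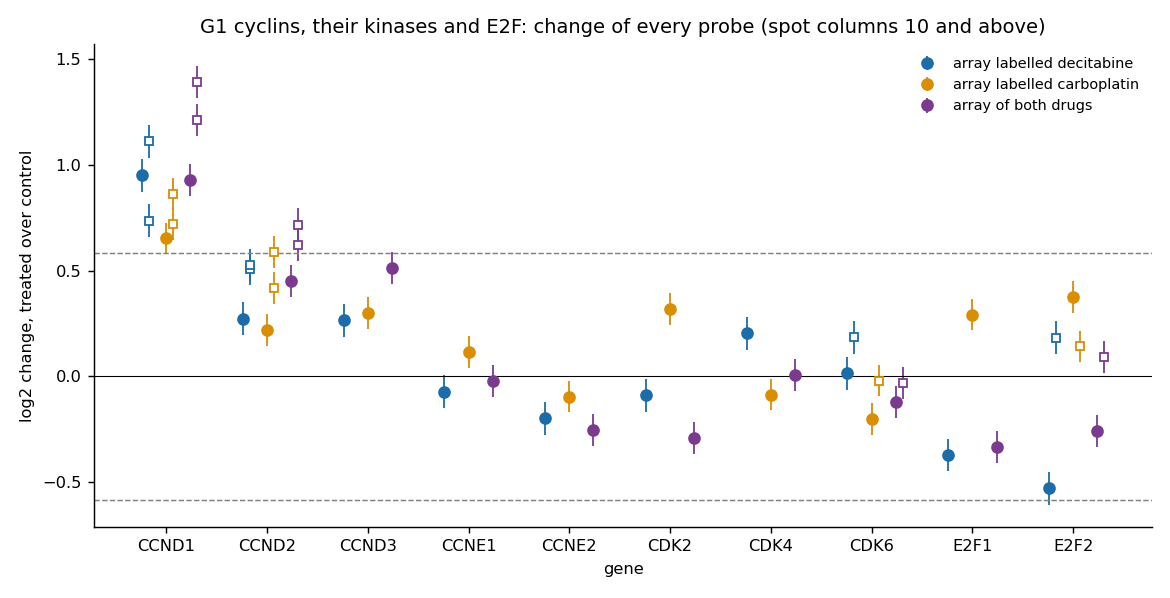
Log2 change of treated over control (vertical axis) for every probe of the 10 genes in columns 10 and above, by array. Filled circles are the brightest probe of a gene, open squares its other probes, bars the technical SD of that array, and dashed lines 1.5-fold; the CCND1 probes sit from 0.65 to 1.39, all above the upper line.

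CCND1 encodes cyclin D1, the partner of CDK4 and CDK6 that couples outside signals to the cell cycle. The sequences of 1 probe of each D-type cyclin are shown because the 3 genes are paralogs whose signals could be mixed if probes were alike. Positions are those of the scanner files on GRCh37, on chr11:69458639-69458698, on chr12:4388019-4388078 and, spanning 926 bases for a probe of 60, on chr6:41908288-41909213 of the minus strand.
CCND1: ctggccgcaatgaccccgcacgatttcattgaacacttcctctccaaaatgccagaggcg
CCND2: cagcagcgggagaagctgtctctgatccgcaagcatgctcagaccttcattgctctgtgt
CCND3: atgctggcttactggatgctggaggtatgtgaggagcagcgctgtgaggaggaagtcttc
The longest run of bases shared by any pair of these probes was 7 of 60.

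The brightest CCND1 probe, the one printed above, had control levels of 11.97, 12.05 and 12.01 and treated levels of 12.92, 12.71 and 12.94 on the log2 scale, for the decitabine-labelled, carboplatin-labelled and combined arrays. All 3 treated levels lay above all 3 control levels, and the control channels spanned 0.09. Its log2 change was 0.95, 0.65 and 0.93, higher than that of 98.1%, 97.9% and 97.1% of genes.

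A second CCND1 probe, at chr11:69467270-69467329, gave log2 changes of 0.74, 0.72 and 1.21 in the same order. The remaining one, at chr11:69468233-69468292, was printed 10 times and gave 1.11 ± 0.07 (SD, n = 4 spots), 0.86 ± 0.02 (n = 6 spots) and 1.39 ± 0.05 (n = 4 spots). So all 3 probes passed 1.5-fold on every array, although they differed among themselves by more than the scatter of repeated spots. The 4 spots of this probe in the first columns gave 2.54, 0.80 and 1.46, so that on the decitabine-labelled array all 4 stood above the highest other spot of the probe, at 1.20.

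CCND2 encodes cyclin D2, and its 3 probes gave a range of values. The brightest one, at chr12:4414040-4414099, had control levels of 12.63, 12.32 and 12.44 and treated levels of 12.90, 12.54 and 12.89, and its log2 change was 0.27, 0.22 and 0.45. The treated level was above its own control on each array, and above all 3 controls on 2 of 3 arrays. The probe printed above gave 0.53, 0.59 and 0.72 and passed 1.5-fold on the carboplatin-labelled array and on the combined array. The one at chr12:4409331-4409390 gave 0.51, 0.42 and 0.62 and passed on the combined array. All 9 values were above 0 after loess, but centring each array on its median in place of loess turned the brightest probe to -0.29, -0.28 and -0.02.

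CCND3 encodes cyclin D3. Its probe printed above had control levels of 7.40, 8.13 and 7.31 and treated levels of 7.67, 8.44 and 7.82, with log2 changes of 0.26, 0.30 and 0.51. The controls spanned 0.83, more than any of the changes, and the groups overlapped. The other CCND3 probe lies in the first columns on all arrays, at chr6:41903193-41903252, and gave 1.78, 0.44 and 0.65.

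CCNE1 and CCNE2 encode cyclins E1 and E2, which bind CDK2 at the end of G1 and are themselves targets of E2F. CCNE1, measured at chr19:30315106-30315165, had control levels of 13.16, 13.09 and 13.03 and treated levels of 13.09, 13.21 and 13.01. Its log2 change was -0.07, 0.12 and -0.02, and treated and control levels overlapped. CCNE2, measured on chromosome 8, had control levels of 7.65, 7.50 and 7.42 and treated levels of 7.45, 7.41 and 7.17. Its log2 change was -0.20, -0.10 and -0.25, below 0 on each array, and its controls spanned 0.23.

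**Figure D2:**
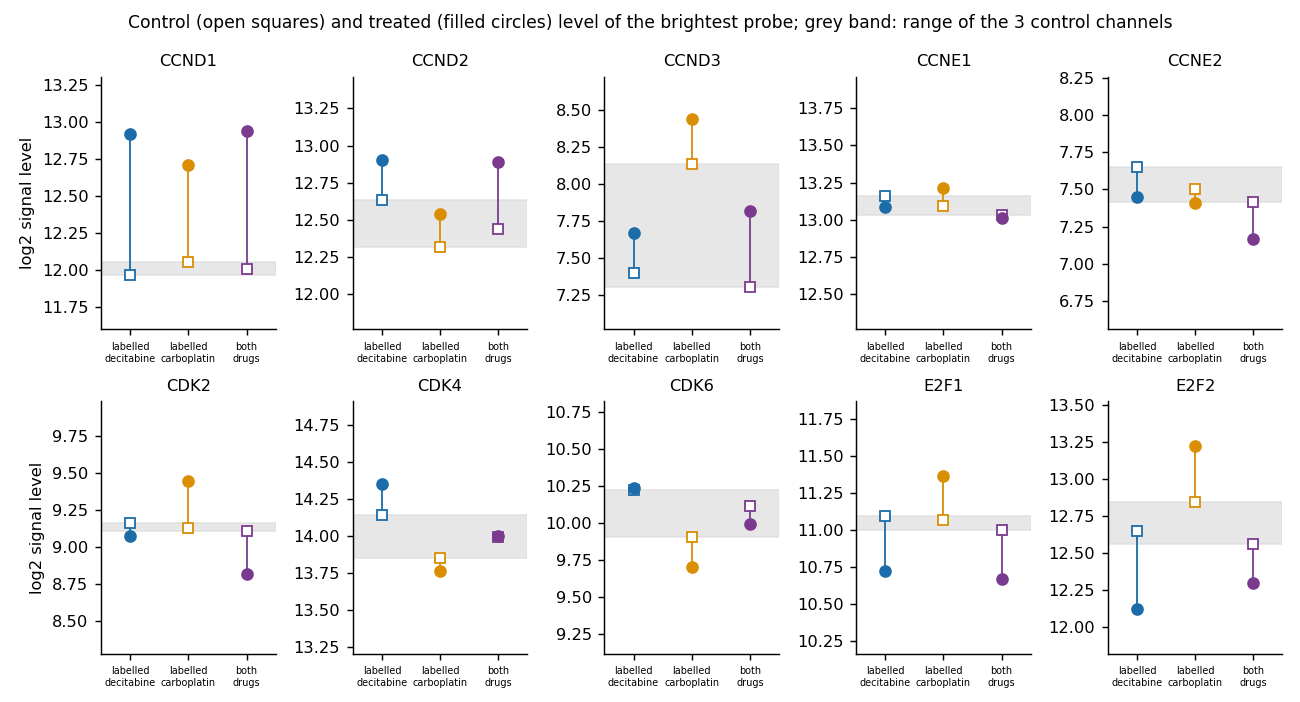
Log2 signal level of the brightest probe of each gene in the control channel (open squares) and treated channel (filled circles) of each array, after scaling between arrays; the grey band is the range of the 3 control channels. After loess, treated CCND1 lies above the band on all 3 arrays, and treated CDK2, E2F1 and E2F2 lie above it on the carboplatin-labelled array and below it on the others.

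CDK2, the kinase of cyclins E and A, was printed 10 times, at chr12:56365789-56365848. Its log2 change was -0.09 ± 0.04, 0.32 ± 0.03 and -0.29 ± 0.06 (SD, n = 9 spots each) on the decitabine-labelled, carboplatin-labelled and combined arrays. The spots of the carboplatin-labelled array ran from 0.28 to 0.37 and those of the combined array from -0.38 to -0.21, with no overlap between arrays. The control levels of 9.16, 9.13 and 9.11 spanned 0.05, and the treated levels were 9.07, 9.44 and 8.82. None of these changes reached 1.5-fold. The 1 spot of CDK2 in the first columns read 1.24 on the decitabine-labelled array, of the opposite sign and marked as an outlier, and 0.24 and -0.21 on the others.

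CDK4 and CDK6 are the kinases of the D-type cyclins. CDK4, at chr12:58142263-58142322, had log2 changes of 0.20, -0.09 and 0.01, with control levels of 14.14, 13.85 and 13.99 and treated levels of 14.35, 13.76 and 14.00. CDK6 had changes of 0.02, -0.20 and -0.12 for its brightest probe, at chr7:92234443-92234502, and of 0.18, -0.02 and -0.03 for the other. The treated and control levels of both kinases overlapped.

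E2F1 and E2F2 encode activating E2F factors, and their genes carry E2F sites through which the factors act on their own promoters. Of the 10 genes, 6 have a promoter in the RefSeq table used (GRCh38.p14). The 250 bases before each start were searched for TTTNNCGC on both strands, where N is any base. The letters were found in E2F1 and E2F2 and in none of the windows of CCND3, CCNE1, CDK4 and CDK6. The promoter stretches are shown because these were the genes with the letters and also the ones that differed most between the single-drug arrays; capitals mark each match on either strand, and overlapping matches run together.
E2F1: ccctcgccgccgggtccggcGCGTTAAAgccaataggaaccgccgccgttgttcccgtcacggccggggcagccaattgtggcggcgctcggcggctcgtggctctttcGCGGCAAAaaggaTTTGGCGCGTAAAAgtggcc
E2F2: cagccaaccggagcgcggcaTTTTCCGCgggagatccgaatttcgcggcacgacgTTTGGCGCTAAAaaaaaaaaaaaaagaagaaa
The E2F1 stretch lies on the minus strand at chr20:33686386-33686527, from 142 to 1 bases before the start, and that of E2F2 on the minus strand at chr1:23531244-23531330, from 97 to 11 bases before it. E2F1 held 4 matches, which begin 122, 33, 20 and 14 bases before the start, and E2F2 held 3, at 77, 42 and 38. Of 35116 promoter windows in the table, 5.92% held at least 1 match and 0.0256% held 3 or more. The letters include the pair CG, of which the windows of E2F1 and E2F2 held 38 and 26, against a median of 11 over all windows. The window of CCNE1 held 39 such pairs and no match. The share among windows equally rich in CG was not computed. A match describes the letters and says nothing of a factor at work there.

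E2F1 was lower on the decitabine-labelled array and on the combined array and higher on the carboplatin-labelled array, where median centring turned its sign (-0.17), and after loess it did not reach 1.5-fold on any. Its probe, at chr20:32263989-32264048, was printed 10 times and had a log2 change of -0.37 ± 0.02 (SD, n = 9 spots), 0.29 ± 0.02 (n = 7 spots) and -0.33 ± 0.03 (n = 9 spots) on the decitabine-labelled, carboplatin-labelled and combined arrays. The spots ran from -0.39 to -0.34, from 0.27 to 0.34 and from -0.38 to -0.29. The control levels were 11.093, 11.070 and 11.003 and the treated levels 10.721, 11.362 and 10.671. The 3 treated levels all lay outside the range of the controls, which spanned 0.09. The 1 spot in the first columns gave 1.02 on the decitabine-labelled array, of the opposite sign, and 0.26 and -0.27 on the others.

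E2F2 had the same signs for its brightest probe, at chr1:23832933-23832992, and median centring likewise turned that on the carboplatin-labelled array (-0.14). The control levels were 12.65, 12.85 and 12.56 and the treated levels 12.12, 13.22 and 12.30, giving log2 changes of -0.53, 0.38 and -0.26. Its other probe, at chr1:23836375-23836434, was far dimmer and gave 0.18, 0.14 and 0.09, so the probes of E2F2 disagreed in direction on the decitabine-labelled array and on the combined array.

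**Figure D3:**
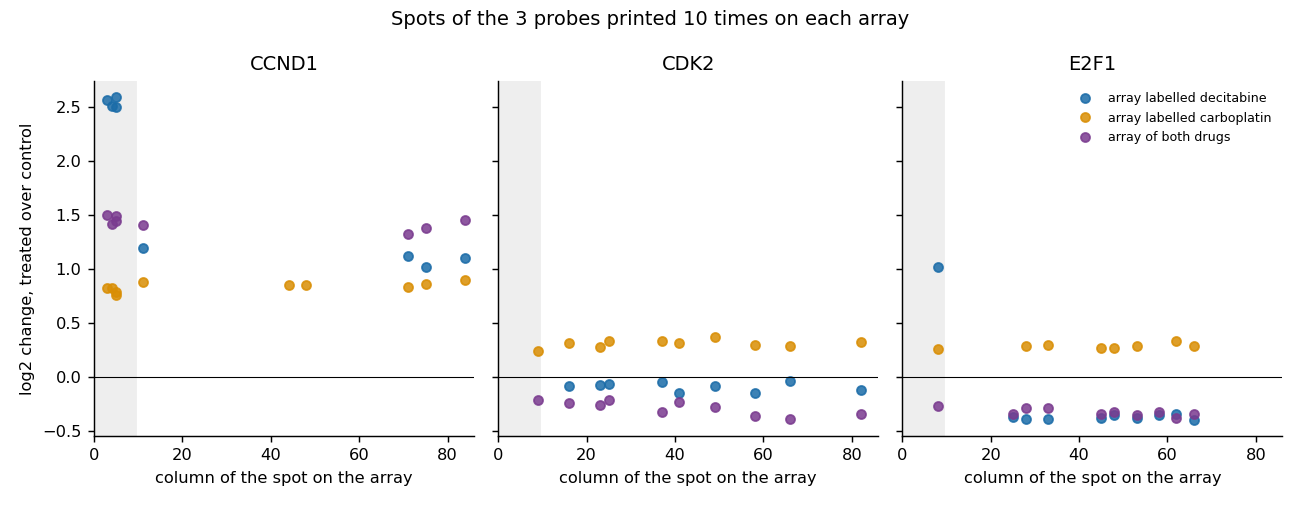
Log2 change of each spot (vertical axis) against its column on the array (horizontal axis) for the probes of CCND1, CDK2 and E2F1 that are printed 10 times; the grey band marks columns 1 to 9. The E2F1 spot in the band reads 1.02 on the decitabine-labelled array while its other spots there lie from -0.39 to -0.34.

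The positive values of E2F1, E2F2 and CDK2 on the carboplatin-labelled array depended on the scaling. With each array centred on its median in place of loess they were -0.17, -0.14 and -0.01, and CCNE1 was at -0.40. On the decitabine-labelled array CDK4 and CDK6 then turned to -0.41 and -0.47, and on the combined array CDK4 turned to -0.53. That scaling moved the median of all genes to -0.22, -0.14 and -0.10 on the decitabine-labelled, carboplatin-labelled and combined arrays, and moved bright genes most. Relative to genes of like brightness under the same scaling, E2F1 was at 0.29, E2F2 at 0.36 and CDK2 at 0.29 on the carboplatin-labelled array. Such a comparison takes out a trend with brightness, much as loess does. Values relative to genes of like brightness are therefore no independent check of the loess values. CCND1 was at 0.40, 0.16 and 0.46 on the 3 arrays under this scaling, no longer past 1.5-fold, and at 0.97, 0.66 and 0.92 relative to 1391 genes of like brightness. It passed 1.5-fold on every array under each of the other 10 alternatives.

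With both drugs, the log2 change of the brightest CCND1 probe differed by -0.02 from that on the decitabine-labelled array and by 0.28 from that on the carboplatin-labelled array. Its other probes were higher with both drugs than on the decitabine-labelled array, by 0.28 and 0.48, so the probes did not give one answer on whether the second drug added to CCND1. All 3 were below the sum of their single-drug changes, with differences of -0.68, -0.58 and -0.25. This was not particular to CCND1, as 8 of the 10 genes were below that sum by their brightest probe and 2 above it. The change with both drugs minus that on the carboplatin-labelled array was -0.61 for CDK2, -0.62 for E2F1 and -0.63 for the brightest probe of E2F2, but -0.05 for its other probe. These are differences between single arrays, and whether the control channels hold the same RNA extract is not given in the sources used here.

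The proteins that hold the G1 kinases in check are encoded by the CDK inhibitor genes. Of 6 inhibitors measured, 1 was up and 3 down on the decitabine-labelled array, 1 up and 1 down on the carboplatin-labelled array, and 1 up and 2 down on the combined array. Of all genes, 4.89%, 2.77% and 7.33% were up and 5.09%, 1.39% and 5.88% down on these arrays. The median log2 changes of the inhibitors were -0.67, 0.24 and -0.06, of which the positive one turned to -0.07 under median centring. That scaling gave 1, 0 and 1 up and 4, 2 and 3 down, beside 26.2%, 18.1% and 21.3% of all genes down and 2.97%, 9.01% and 4.30% up. CDKN1A, which encodes the p53-induced inhibitor p21, rose by 2.97, 0.97 and 2.90, with its other probe at 3.56, 1.31 and 3.39, although with the authors' values no inhibitor was up on the carboplatin-labelled array. CDKN1B, which encodes p27, was at -1.54, -0.79 and -1.66, with its other probe at -0.91, -0.11 and -1.01, and with the mean of all probes no inhibitor was down on the carboplatin-labelled array and 2 were up. CDKN2C, an inhibitor of CDK4 and CDK6, was at -1.69, -0.23 and -1.71. The direction of CDKN2A, which encodes p16, differed between arrays and probes, with -1.07, 0.47 and -0.32 for the brightest probe and -0.70, 1.02 and 0.17 for the other. CDKN2B was at 0.30, 0.12 and 0.38, but its other probe at -0.11, 0.00 and -0.16 gave no such direction, and CDKN2D was at -0.26, 0.35 and 0.21.

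Of the 11 genes of the RB family and the other E2F and DP factors, 1 was up and 1 down on the decitabine-labelled array, none passed on the carboplatin-labelled array, and 1 was up and 2 down on the combined array. Of all genes, 4.89%, 2.77% and 7.33% were up and 5.09%, 1.39% and 5.88% down on these arrays. The median log2 changes of the 11 genes were -0.06, -0.14 and -0.18. Under median centring, which put 26.2%, 18.1% and 21.3% of all genes down, none was up and 5, 6 and 6 were down, with medians of -0.57, -0.60 and -0.60. With processed signals, the scanner's log ratio or the authors' values none was up and 2 were down on the decitabine-labelled array. With each of these settings 1 was down on the carboplatin-labelled array. Of all genes, these settings put 15%, 11.7% and 6.63% down on the decitabine-labelled array and 8.01%, 6.05% and 3.08% down on the carboplatin-labelled array. An offset of 16 or keeping outlier spots also gave 2 down on the decitabine-labelled array. With the authors' values none was up on the combined array either. RB1 itself was at 0.12, -0.13 and -0.10, with its other probe at 0.09, -0.02 and 0.16. Its relative RBL1 was at -0.58, -0.30 and -0.62 but at -0.14, 0.03 and -0.33 by its other probe. RBL2 was at -0.16, -0.30 and -0.19, with its other probe at -0.04, -0.14 and -0.02. The atypical E2F repressors E2F7 and E2F8 stood on opposite sides, E2F7 at 0.60, 0.20 and 0.66 and E2F8 at -1.26, -0.42 and -1.24. None of the classical factors was called. E2F3, an activator like E2F1, was at -0.19, -0.16 and -0.18. E2F4 was at 0.21, -0.01 and 0.18 and at 0.44, 0.27 and 0.56 by its other probe. E2F5 was at -0.05, -0.54 and -0.37. E2F6 was at -0.24, -0.14 and -0.27, but its 4 probes ran up to 0.02, 0.01 and 0.00. The DP partners TFDP1 and TFDP2 were at -0.06, 0.27 and 0.02 and at 0.15, 0.15 and 0.06. The other probe of TFDP1 was at 0.09, 0.45 and 0.00.

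**Figure D4:**
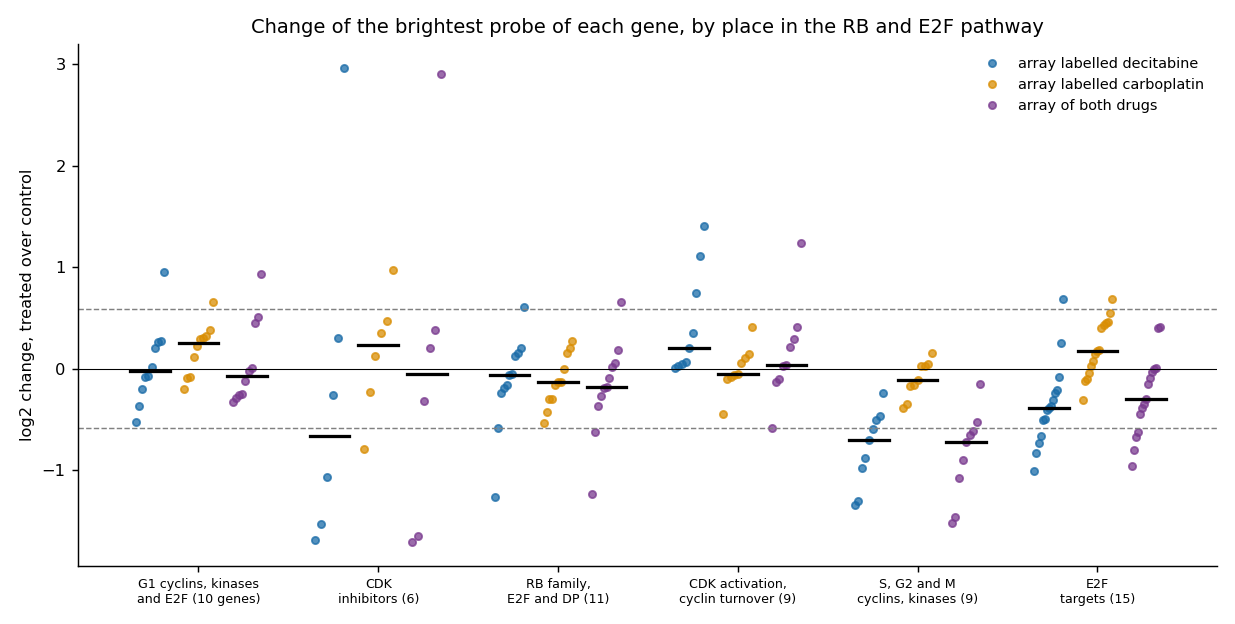
Log2 change of the brightest probe of each gene (points) and the median of each list (bars) on the 3 arrays, for the 10 genes and 5 lists of the same pathway; dashed lines mark 1.5-fold. The S, G2 and M genes have medians of -0.70, -0.11 and -0.72, and the 10 genes have medians of -0.03, 0.26 and -0.07.

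Downstream of the G1 kinases, 9 of 10 listed genes of S phase, G2 and mitosis were measured in columns 10 and above. They are cyclins and kinases together with the phosphatases CDC25B and CDC25C and the kinase subunit CKS2. On the decitabine-labelled array 6 were down and on the combined array 7, with none up, and on the carboplatin-labelled array none passed in either direction. Of all genes, 5.09%, 1.39% and 5.88% were down on the decitabine-labelled, carboplatin-labelled and combined arrays. Under median centring 9, 5 and 9 of the 9 were down on the 3 arrays, beside 4573, 3167 and 3720 of all genes. CCNB1, the mitotic cyclin B1, was at -1.35, -0.39 and -1.52, and CCNA2, cyclin A2, at -0.88, -0.35 and -1.08. CCNB2 was at -1.30, -0.17 and -1.47, although its other probe gave -0.11, -0.36 and -0.28.

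The E2F target genes act mostly in DNA replication, and their medians over 15 genes were -0.39, 0.17 and -0.30. The positive one was 0.07 with the mean of all probes, 0.08 with the authors' values and -0.34 under median centring. With processed signals the median on the decitabine-labelled array was -0.62. Of all genes, 4.89%, 2.77% and 7.33% were up and 5.09%, 1.39% and 5.88% down on the 3 arrays. Called among the 15 were 1 up and 4 down on the decitabine-labelled array and 1 up and none down on the carboplatin-labelled array. On the combined array none was up and 4 were down. Under median centring none was up and 13, 3 and 9 were down, beside 26.2%, 18.1% and 21.3% of all genes down. On the decitabine-labelled array 8 were down with processed signals and 7 with the scanner's log ratio, settings that put 2622 and 2044 of all genes down there. With processed signals none was up on that array, beside 19.2% of all genes. With the scanner's log ratio 2 were up on the carboplatin-labelled array, beside 7.7% of all genes. MCM3 and MCM5, subunits of the replicative helicase, were at -1.01, -0.11 and -0.96 and at -0.83, 0.14 and -0.68. CHEK1, a checkpoint kinase, was at -0.66, 0.07 and -0.80. CDT1, which loads the helicase, was at 0.25, 0.69 and 0.40 and was the gene up on the carboplatin-labelled array. The others called, taken up after their values were seen, were PCNA at 0.68 and TK1 at -0.73 on the decitabine-labelled array and POLA1 at -0.63 on the combined array. Of the pathway genes in these lists, 7 are among the 53 used above to check the labels, CDKN1B, E2F8, CCNA2, CCNB2, CKS2, TK1 and POLA1, so their direction is not independent of that list.

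Of the genes that activate the G1 kinases or degrade their cyclins, 3 of 9 were up on the decitabine-labelled array (1 of 9 with the mean of all probes of a gene), none was called on the carboplatin-labelled array, and 1 was up and 1 down on the combined array. Of all genes, 4.89%, 2.77% and 7.33% were up and 5.09%, 1.39% and 5.88% down on these arrays. The median log2 changes of the 9 genes were 0.20, -0.05 and 0.03, and those above 0 turned to -0.31 and -0.30 under median centring. That scaling gave 1, 0 and 1 up and 0, 2 and 2 down, beside 26.2%, 18.1% and 21.3% of all genes down. With the mean of all probes or the authors' values none was down on the combined array. FBXW7, which marks cyclin E for degradation, was at 1.40, 0.10 and 1.24, and its other probe at 1.17, 0.13 and 0.96. MYC was at 0.74, -0.45 and 0.40 for its brightest probe, and its 3 probes ran from 0.13 to 0.74, from -0.45 to 0.20 and from 0.02 to 0.48. CKS1B was at 1.11, -0.08 and -0.59, but a second probe of it gave -0.70 on the decitabine-labelled array, so no direction can be given there.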

How the data were processed

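The authors hybridized treated (Cy3) and control (Cy5) RNA to 3 Agilent arrays, 1 per treatment and all on 1 slide by the file labels, and deposited Feature Extraction output with intensity signals and a log10 ratio per spot, together with processed values that were compared with the scanner files and taken as log2 changes. The version is 9.5.3.1 in the file headers and 8.5.1.1 in the submitters' processing notes, which also name limma and R 3.0.2. How the authors corrected background and averaged spots for these log2 values is not given in the sources used here. These values followed the scanner changes of treated over control with correlations across probes of 0.95, 0.91 and 0.96.

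Mean signals were background corrected (normexp, offset 50) and loess normalized in limma 3.58.1 under R 4.3.3 with data.table (1.17.8) and jsonlite 2.0.0; channel levels were scaled between arrays (Aquantile). Spots marked as outliers (276, 111 and 89) were left out, and probes were averaged over columns 10 and above. A gene takes its brightest probe. Of 41000 probes, 29381 were matched to RefSeq symbols, 26386 by accession and 2995 by symbol or synonym. The scripts were tested on simulated data. Each list was described by its counts and median. Genes named were the 10 genes, all inhibitors and all RB, E2F and DP genes, in each other list the 3 with the largest change on the combined array and any past 1.5-fold on the carboplatin-labelled array, and the 2 genes nearest in pattern to a called gene. The genes and lists were chosen with earlier results of these data known. 10 alternatives were planned and 1 was added after seeing the data. Probe positions are those of the scanner files (GRCh37), and gene structure at the probes was not used here.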

Additional observations from a re-analysis of the deposited data

Results flagged for a closer look

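E2F1 was below 0 on the decitabine-labelled array and above 0 on the carboplatin-labelled array, and the difference between the log2 changes was -0.66. E2F2 had the same opposite directions for its brightest probe, with a difference of -0.90, while its dimmer probe was above 0 on both. Under median centring in place of loess both genes were below 0 on both arrays, E2F1 at -0.89 and -0.17 and E2F2 at -1.08 and -0.14. These differences drew attention because the arrays moved in opposite directions by more than 3 technical SDs each. With 1 array per treatment the difference was not tested.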

How the results depend on the processing

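Against 1 gene up and none down on each array and medians of -0.03, 0.26 and -0.07 (decitabine-labelled, carboplatin-labelled and combined arrays), median centring in place of loess gave 0, 0 and 0 up, 3, 1 and 2 down and medians of -0.44, -0.15 and -0.51, while 26.2%, 18.1% and 21.3% of all genes were down and the median of all genes was -0.22, -0.14 and -0.10. Processed signals gave 1 down and a median of -0.17 on the decitabine-labelled array, a median of 0.17 on the carboplatin-labelled array and 2 up on the combined array. Under that setting 15% of all genes were down on the decitabine-labelled array and 13.1% were up on the combined array. The authors' values gave 1 down on the decitabine-labelled array and 2 up with a median of 0.12 on the carboplatin-labelled array. With these values 6.63% of all genes were down on the decitabine-labelled array and 2.59% were up on the carboplatin-labelled array. An offset of 16, the scanner's log ratio and the mean of all probes each gave 2 up on the combined array. These settings put 8.99%, 13% and 6.74% of all genes up there. Averaging all columns, an alternative chosen after seeing the data, gave 2 up on the decitabine-labelled array and 2 on the combined array. Of all genes, 7.5% and 7.36% were then up on these 2 arrays. Of 330 values of single genes, 83 moved by more than the technical SD and 247 did not. The sign was the same under all alternatives for 7, 5 and 8 of the 10 genes. Where it was not, median centring in place of loess always changed it. Processed signals and the scanner's log ratio also did so for CDK6 on the decitabine-labelled array and for CDK4 on the combined array. The authors' values turned CDK4 on the combined array too and put CCND2 at 0 on the carboplatin-labelled array. Why these settings differ was not tested. No paired analysis was possible because each treatment has 1 array. With 3 arrays, depth allows no statement on variation between cultures.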

Other observations

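Among 12161 other genes well above background on all arrays, those whose 3 log2 changes lay nearest to those of CCND1 were LYPLA2P1, at 0.97, 0.60 and 0.93 (distance 0.05), and RAB17, at 0.86, 0.62 and 0.93 (distance 0.10), on the decitabine-labelled, carboplatin-labelled and combined arrays.

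The 1336 genes with TTTNNCGC in the 250 bases before a start had median log2 changes of -0.06, -0.01 and -0.04, and 6.66%, 1.65% and 8.83% of them were down and 4.27%, 2.40% and 5.76% up. The 12215 genes in the table without it had medians of -0.01, 0.00 and 0.00, and 5.16%, 1.42% and 5.92% were down and 4.94%, 2.80% and 7.18% up.

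Some genes of the pathway lie only in the first 9 columns of spots and were kept out of the counts. They read, on the decitabine-labelled, carboplatin-labelled and combined arrays, 1.79, -0.04 and 0.02 for CDK7, 0.66, 0.20 and -0.54 for FOXM1, 0.54, -0.29 and -0.95 for MCM6, 1.20, 0.23 and -0.16 for MCM7, 1.25, -0.42 and -0.49 for TYMS, and 0.07, 0.74 and -0.14 for CDKN1C.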
